A study of Mus musculus with 12 samples.

Results

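Mutant SETBP1 was compared here, on its own, with empty vectors in retrovirally transduced mouse bone marrow. The comparison used 6 of the 12 RNA-seq libraries of the series, chosen by their labelled transduction: 3 that received SETBP1 (D868N) with an empty vector and 3 that received 2 empty vectors. The other 6 libraries carried NRAS (G12D), with or without SETBP1 (D868N), and entered the fit so that all 12 shared an estimate of the spread. All marrow came from female C57BL/6J mice aged 6 to 10 weeks. The virus was packaged in 293T17 cells, a human kidney line, and the resulting cells are called murine leukemia cells in the labels. Libraries were prepared from total RNA with a SMART-Seq kit meant for ultra-low input. The labels number the replicates without saying whether they were separate mice, transductions or cultures, so p-values measure only the spread between these libraries, which may be technical.

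SETBP1 is a large nuclear protein that binds DNA and also binds SET, an inhibitor of the phosphatase PP2A. Substitutions in a short stretch of the protein, which normally marks it for degradation, stabilise it, and they recur in chronic myeloid neoplasms and in secondary leukemia. SETBP1 is known to raise the Hoxa9 and Hoxa10 genes, homeobox factors that keep myeloid progenitors self-renewing, and to repress Runx1, a factor needed for blood cell differentiation. Marrow progenitors in culture give rise to neutrophils, whose granule proteins are made in stages, to monocytes and macrophages, and to mast cells and basophils.

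Total counts ran from 7085894 to 8591360 in the empty libraries and from 7335665 to 8864919 in the SETBP1 libraries. SETBP1 replicate 3 stood apart. Its log2 CPM (counts scaled to the library total) correlated at 0.946 and 0.953 with the other SETBP1 libraries, against 0.984 between those and 0.989 to 0.990 among the empty libraries. It also had the fewest genes with a count, 11835 against 12668 to 12800. The change from empty vectors also moved with transcript length. In the 2751 genes with the shortest transcripts (294 to 2229 bases), the median change on the log2 (CPM + 0.25) scale was 0.09, 0.18 and 0.35 in SETBP1 replicates 1, 2 and 3. In the 2748 with the longest (4755 bases or more) it was -0.07, -0.11 and -0.57. Results are therefore also given without SETBP1 replicate 3 (for lists and changes, as the value in parentheses after the one with 12 libraries). The value with the length trend removed is given where that ended or made the call of a gene described. It is also given where it moved a list's count of at least 5 calls by over 1.5 times.

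The introduced genes matched the labels as far as they could be read. Setbp1 had 0 counts in each empty library and 7, 7 and 5 counts in the SETBP1 libraries, at least 6.1-fold higher against a floor of 3 counts over the empty group. Whether the insert was of mouse or human sequence is not given in the sources used here, and human reads would align to the mouse gene incompletely. Endogenous Nras was at 82, 93 and 84.5 normalised CPM in the empty libraries and 86.7, 92.5 and 85.4 in the SETBP1 libraries. Its log2 change of 0.03 (adjusted p 0.833, 0.05 without SETBP1 replicate 3) was smaller than its standard error of 0.09.

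With mutant SETBP1, many macrophage, chemokine and HOXA genes were higher, and many neutrophil granule, mast cell and cholesterol synthesis genes were lower. Of 10993 genes tested, 1633 passed an adjusted p of 0.05 (14.9%), 913 higher (8.31%) and 720 lower (6.55%). Of these, 239 changed at least 2-fold (2.17%). Without SETBP1 replicate 3 the test called 1711 genes (15.6%), 847 higher (7.7%) and 864 lower (7.86%), of which 193 changed at least 2-fold (1.76%). In both fits and in the same direction, 1324 genes passed (12%), 707 higher (6.43%) and 617 lower (5.61%), and 0 changed direction. A further 309 passed with 12 libraries only and 387 without SETBP1 replicate 3 only. At an unadjusted p under 0.05, 3632 genes passed with 12 libraries.

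The 3 SETBP1 libraries did not lie equally far from the empty ones. All 3 lay above all empty libraries in 1833 genes (16.7%) and below in 1813 (16.5%). Among called genes, 97.9% of those higher and 98.6% of those lower did not overlap between groups. A lack of overlap therefore adds little to a call. SETBP1 replicate 3 was the highest SETBP1 library in 737 of the 913 genes called higher and the lowest in 493 of the 720 called lower. The number of calls depended on which libraries set the spread. Fitting only the 6 libraries of the 2 groups left 107 genes, and fitting those without SETBP1 replicate 3 gave 1494. Leaving out empty replicate 1, 2 or 3 gave 485, 1067 or 398 genes, and leaving out SETBP1 replicate 1 gave 3187.

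**Figure D1:**
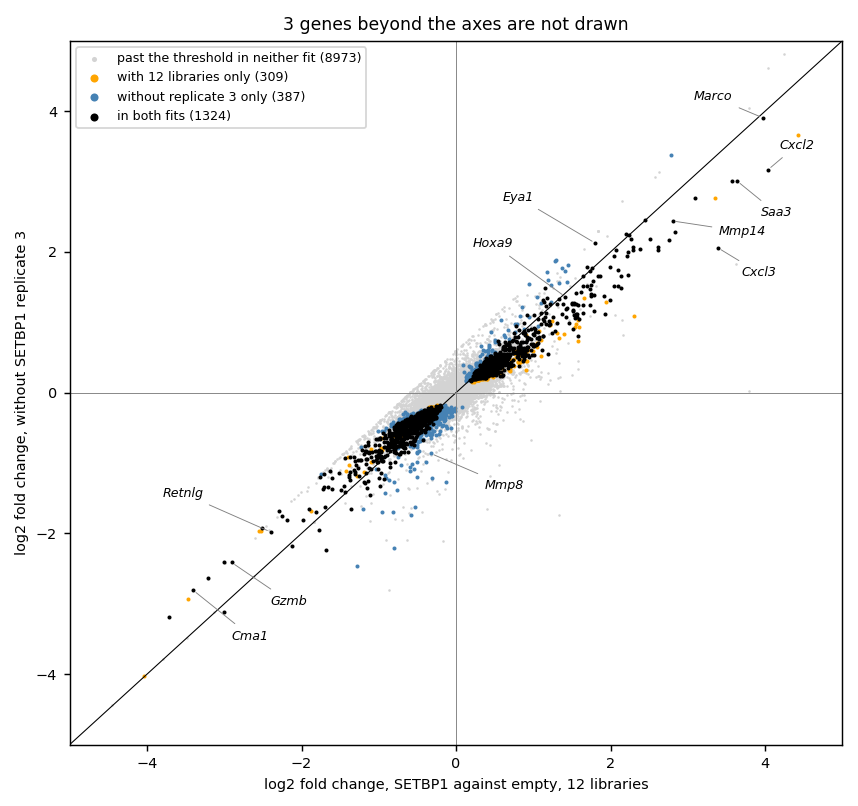
Log2 fold change of each gene for SETBP1 against empty with all 12 libraries (x axis) and without SETBP1 replicate 3 (y axis). Each point is a gene, coloured by the fit in which it passed an adjusted p of 0.05, the line marks equal values, and the 1324 genes called in both fits keep their side of 0.

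Of the 10 largest rises among genes that passed in both fits, had no overlap between groups and averaged at least 50 counts with SETBP1, Cxcl2 and Cxcl3 are described with the chemokines and the others here. Marco, a scavenger receptor that takes up bacteria and particles, was at 1.33, 1.52 and 0.270 normalised CPM with empty vectors and 15.1, 17.2 and 18.3 with SETBP1 (log2 change 3.97, SE 0.45, adjusted p 0.000526, 3.90 without SETBP1 replicate 3). The SETBP1 libraries lay close together for it, all far above the empty ones. Saa3, a serum amyloid A protein made in the acute phase response, was at 21.8, 24.5 and 19.8 normalised CPM with empty vectors and 170.3, 184 and 470.3 with SETBP1 (log2 change 3.64, SE 0.35, adjusted p 0.000226, 3.00 without SETBP1 replicate 3). SETBP1 replicate 3 was more than 2-fold above the other SETBP1 libraries, which were themselves well clear of the empty range. Mmp14, a membrane-bound protease that cuts collagen, went from 10.5, 9.02 and 10.7 to 46.8, 62.6 and 102 (log2 change 2.80, SE 0.24, adjusted p 0.000174, 2.44 without SETBP1 replicate 3). Cfb, complement factor B of the alternative pathway, went from 15.2, 20.7 and 13.1 to 71.7, 77.1 and 129 (log2 change 2.50, SE 0.30, adjusted p 0.000714, 2.19 without SETBP1 replicate 3). For both, replicate 3 was again the highest, and a lack of overlap was a condition of this selection. Ly6i, a monocyte surface protein of a family of close copies whose reads may be shared, rose by 2.39 (2.04 without SETBP1 replicate 3). Slamf7, a receptor of activated myeloid and lymphoid cells, rose by 2.29 (2.03), Fabp4, a fatty acid carrier of macrophages, by 2.29 (2.07), and Adgre4, an adhesion receptor of monocytes, by 2.26 (2.18).

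**Figure D2:**
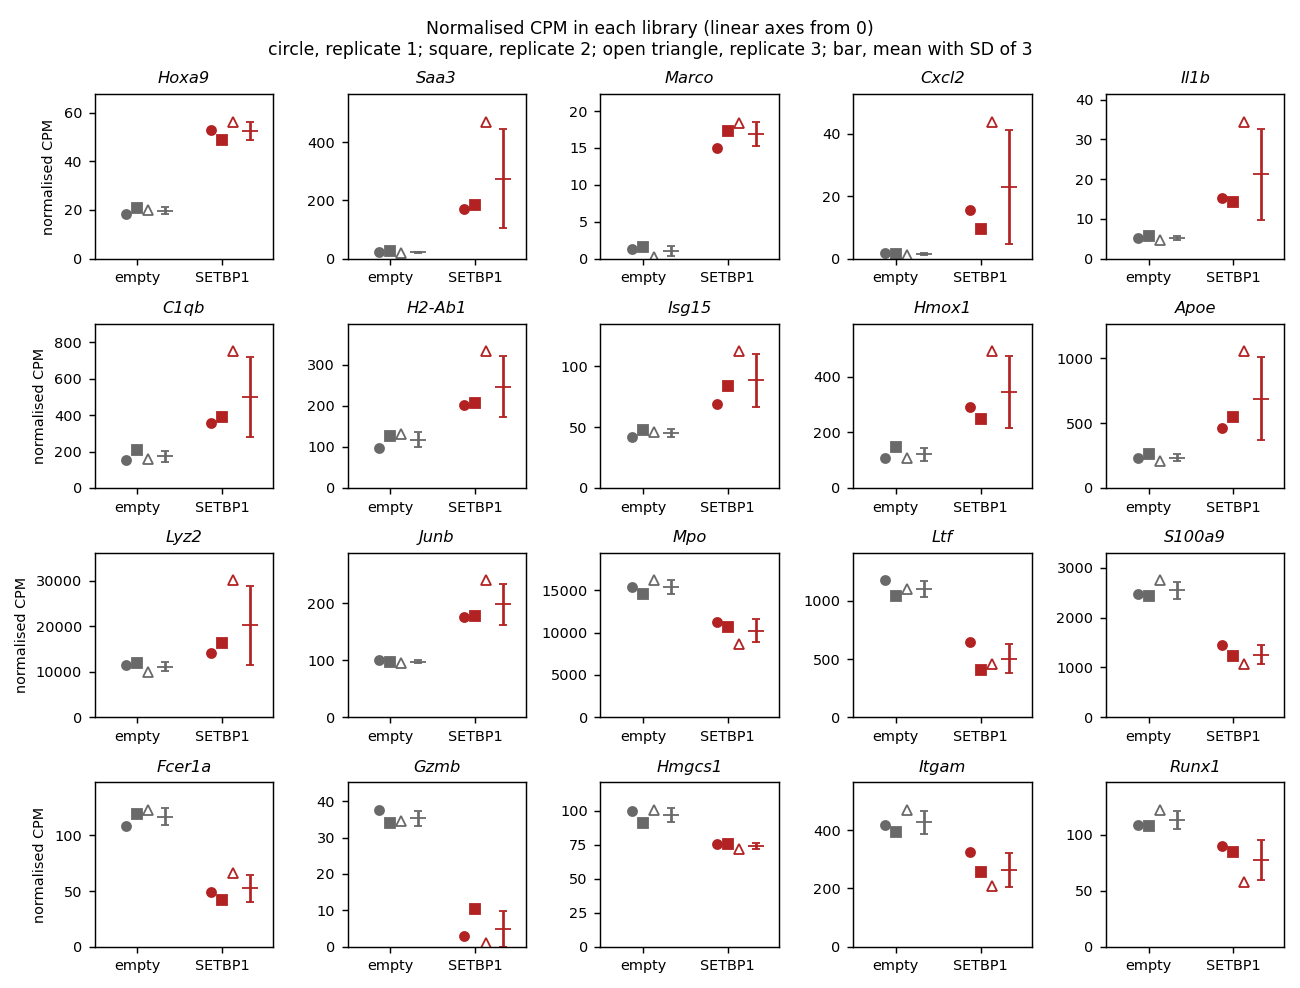
Normalised CPM of 20 genes in the 3 empty and 3 SETBP1 libraries, on linear axes from 0, with the mean and SD of 3 beside the points (SD bars end at 0). Groups do not overlap for any of the 20. SETBP1 replicate 3 (open triangle) is the highest SETBP1 library for each plotted gene that rose, by a small margin for Hoxa9 and Marco.

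Genes of the HOXA cluster were among those that rose. Of 11 tested members of the HOXA cluster and its cofactors, 5 were higher and 0 lower with 12 libraries, and 6 were higher without SETBP1 replicate 3. With library size scaling 3 were higher. The list's median log2 change was 0.70 (0.79 without that library), against -0.01 over all genes in both fits. Hoxa9 (chr6:52223100-52231089, GRCm38, minus strand) was at 18.3, 21 and 20.1 normalised CPM with empty vectors and 53, 48.6 and 56.1 with SETBP1 (log2 change 1.41, SE 0.13, adjusted p 0.000202, 1.36 without SETBP1 replicate 3). All 3 SETBP1 libraries were at similar levels, and replicate 3 did not stand out. Hoxa10, its neighbour in the cluster, was at 4.31, 4.57 and 2.83 and 10.4, 11.8 and 4.14 (log2 change 1.15, SE 0.35, adjusted p 0.0443, 1.49 without SETBP1 replicate 3). Here replicate 3 fell inside the empty range while the other SETBP1 libraries lay above it.

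Hoxa5 rose by 1.70 and Hoxa7 by 0.88 on the log2 scale (1.78 and 0.99 without SETBP1 replicate 3), with adjusted p of 0.0367 and 0.0497. With the length trend removed, Hoxa5, Hoxa7 and Hoxa10 missed the threshold with 12 libraries (adjusted p 0.0594, 0.0960 and 0.0624). They passed with SETBP1 replicate 3 left out as well (adjusted p 0.0358, 0.0258 and 0.000616). Of 19 alternative fits, Hoxa9 passed in 19, Hoxa5 in 13, and Hoxa7 and Hoxa10 in 9 each. Hoxa10 missed the threshold with limma-voom, library size scaling and a replicate block, and Hoxa7 with library size and upper-quartile scaling. Eya1, a phosphatase and coactivator, went from 2.32, 2.16 and 1.75 to 10.6, 7.71 and 3.67 normalised CPM (log2 change 1.80, SE 0.39, adjusted p 0.0110, 2.12 without SETBP1 replicate 3). Meis1, the DNA-binding partner of HOXA9, missed the threshold with 12 libraries (0.47, adjusted p 0.109) and passed without SETBP1 replicate 3 (0.60, adjusted p 0.0262). With the length trend removed it passed with 12 libraries too (0.72, adjusted p 0.0146). Whether the counting used strand is not given in the sources used here, so reads of antisense and overlapping transcripts of the cluster cannot be told apart from those of the genes.

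Among other genes tied to SETBP1, Runx1 fell from 108, 108 and 122 to 90.2, 84.5 and 57.4 normalised CPM (log2 change -0.54, SE 0.14, adjusted p 0.0249, -0.37 without SETBP1 replicate 3), and the groups did not overlap. Set, the binding partner of SETBP1, was called only without SETBP1 replicate 3 (0.28, adjusted p 0.00570). Of 12 subunits of PP2A, 0 were higher and 1 lower, and 2 were lower without that library. The counts with 12 libraries were near the share over all genes, 8.31% higher and 6.55% lower. The 1 lower was Ppp2r5a, a regulatory subunit, which fell by 0.27 on the log2 scale (adjusted p 0.0249, -0.25 without SETBP1 replicate 3).

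Chemokines, which draw leukocytes to a site, had the largest share of members called higher of any list with 12 libraries. Of 20 tested, 13 were higher and 1, Ccl24, an eosinophil attractant, was lower in both fits, and the list's median log2 change was 1.51 (1.01 without SETBP1 replicate 3). The promoters of some of these genes hold a match to the binding consensus of NF-kB, the factor of inflammatory gene induction. For the chemokines Cxcl2 and Cxcl3 and for Nfkbia, the inhibitor that NF-kB itself induces, windows before the RefSeq gene start (GRCm38.p6) are shown, since these genes rose together and carry near-identical matches, given in capitals:
Cxcl2 (chr5:90903758-90903857, plus strand): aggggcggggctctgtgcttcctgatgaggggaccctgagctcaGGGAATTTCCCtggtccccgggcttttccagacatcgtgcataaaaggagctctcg
Cxcl3 (chr5:90785984-90786083, plus strand): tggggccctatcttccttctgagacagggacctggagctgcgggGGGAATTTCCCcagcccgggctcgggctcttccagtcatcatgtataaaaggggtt
Nfkbia (chr12:55492648-55492721, minus strand): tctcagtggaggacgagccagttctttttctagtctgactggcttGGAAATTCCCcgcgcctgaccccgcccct

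The consensus was searched on both strands in the 250 bases before each start, and overlapping matches were merged in the capitals. It was found in 5.32% of the 8836 tested genes with a RefSeq promoter entry, in 5.64% of those called higher and in 4.33% of those called lower. Among chemokines with an entry it was found in 4 of 13 tested and 4 of 8 called higher. Among cytokines and growth factors with an entry it was found in 3 of 15 tested and 1 of 7 called higher. Of the NF-kB subunits and feedback genes with an entry, 7 of 16 held it. A match describes the letters of the promoter and does not show binding. The bases after the RefSeq start were found near a GENCODE transcript start for Cxcl2 and Nfkbia, and not for Cxcl3. The placing of the Cxcl3 window is therefore less certain.

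Cxcl2, which attracts neutrophils, was at 1.66, 1.40 and 1.08 normalised CPM with empty vectors and 15.7, 9.54 and 43.9 with SETBP1 (log2 change 4.04, SE 0.61, adjusted p 0.00236, 3.17 without SETBP1 replicate 3). Cxcl3, a relative encoded nearby on chromosome 5, was at 5.75, 4.83 and 13 and 34.2, 29.8 and 179 (log2 change 3.39, SE 0.65, adjusted p 0.00645, 2.06 without SETBP1 replicate 3). For both, replicate 3 was several times above the other SETBP1 libraries, and all 3 lay above the empty range. The monocyte attractant Ccl2 went from 74.3, 98.5 and 67.2 to 266, 247 and 613 (log2 change 2.23, SE 0.28, adjusted p 0.000828, 1.68 without SETBP1 replicate 3). Its close relative Ccl12, on the same stretch of chromosome 11, rose by 1.87 (1.65), and reads may be shared between such copies.

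Ccl5 and Ccl3, which attract monocytes and T cells, rose by 2.23 and 1.52 on the log2 scale (2.00 and 1.27 without SETBP1 replicate 3). Cxcl16, a membrane-bound chemokine that is also a scavenger receptor, was at 7.97, 8.38 and 8.23 normalised CPM with empty vectors and 25.3, 24 and 34.4 with SETBP1 (log2 change 1.77, SE 0.21, adjusted p 0.000709, 1.59 without SETBP1 replicate 3), with no overlap. Pf4 and Ppbp, which are platelet chemokines that macrophages can also make, rose by 1.51 and 1.11 (0.90 and 0.61). Over the 17 tested megakaryocyte markers, 2 were higher, which were these chemokines, and 1 lower, and 2 and 3 without SETBP1 replicate 3. The counts with 12 libraries were near the share over all genes, 8.31% higher and 6.55% lower. The platelet integrin Itgb3 was lower in both fits, at 51, 39.6 and 43.5 against 24.3, 25 and 18.1 normalised CPM (log2 change -0.99, -0.86 without that library). Its partner Itga2b (-0.46) and the secretion factor Rab27b (-0.86) passed only without it.

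Some cytokines were higher too. Of 20 tested cytokines and growth factors, 7 were higher and 0 lower in both fits, with a median log2 change of 0.57 (0.34 without SETBP1 replicate 3). Il1b, a secreted inflammatory cytokine, was at 5.09, 5.59 and 4.72 normalised CPM with empty vectors and 15.2, 14.1 and 34.4 with SETBP1 (log2 change 2.05, SE 0.33, adjusted p 0.00279, 1.51 without SETBP1 replicate 3). Il1a, its relative, rose by 1.75 (1.37). Tnf, tumour necrosis factor, was at 14, 9.02 and 9.45 and 21.2, 23.3 and 27.6 (log2 change 1.14, SE 0.18, adjusted p 0.00279, 1.02 without SETBP1 replicate 3). The SETBP1 libraries were all above the empty ones for these genes, and replicate 3 was the highest. Igf1, a growth factor, rose by 1.56 (1.42), Spp1, the matrix protein osteopontin, by 1.64 (1.13) and Vegfa, which promotes vessel growth, by 0.44 (0.30).

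Chemokine and cytokine receptors were called at a share near that of all genes with 12 libraries. Of 27 chemokine and cytokine receptors, 1 was higher and 3 lower, and 1 and 6 without SETBP1 replicate 3. Over all genes 8.31% were higher and 6.55% lower, so the counts with 12 libraries are near the background. Without SETBP1 replicate 3 the shares over all genes were 7.7% and 7.86%. The 1 higher was Csf1r, the receptor through which macrophages survive, at 329, 337 and 328 normalised CPM with empty vectors and 389, 418 and 624 with SETBP1 (log2 change 0.53, SE 0.13, adjusted p 0.0205, 0.28 without SETBP1 replicate 3). Lower were Il1r2, a decoy receptor for interleukin-1 (-0.93, -1.22 without SETBP1 replicate 3), Il17ra (-0.60, -0.44) and Csf2rb, the shared signalling chain of the GM-CSF, IL-3 and IL-5 receptors (-0.30, -0.26). Csf2rb missed the threshold with the length trend removed (adjusted p 0.325). Kit, the stem cell factor receptor, was at 61, 58.3 and 76.8 and 49, 40.2 and 11.8 and passed only without replicate 3 (-0.55, adjusted p 0.00968), although that library had the lowest level.

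Many immediate-early genes, which cells switch on within minutes of a stimulus, were higher. Of 26 tested, 12 were higher and 1, Btg2, an antiproliferative gene, was lower (11 and 1 without SETBP1 replicate 3), with a median of 0.40 (0.21). Junb, an AP-1 subunit, was at 100.2, 97.1 and 95.7 normalised CPM with empty vectors and 176, 179 and 240.4 with SETBP1 (log2 change 1.02, SE 0.11, adjusted p 0.000344, 0.86 without SETBP1 replicate 3). Fos, its partner, was at 14.9, 16.6 and 13.8 and 47.7, 24.8 and 56.1 (log2 change 1.50, SE 0.23, adjusted p 0.00242, 1.27 without SETBP1 replicate 3). Empty libraries agreed closely for both genes, and each SETBP1 library was higher. Jun rose by 0.69 (0.69), Ier2 by 0.88 (0.64) and Zfp36, which destabilises inflammatory mRNAs, by 0.66 (0.55).

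Some feedback and subunit genes of NF-kB were higher. Of 20, 6 were higher and 0 lower, and 4 without SETBP1 replicate 3, with a median of 0.35 (0.13). Nfkbia was at 136, 143 and 114 normalised CPM with empty vectors and 151, 174 and 239.7 with SETBP1 (log2 change 0.52, SE 0.14, adjusted p 0.0291, 0.31 without SETBP1 replicate 3). Its adjusted p was 0.0529 with the length trend removed. Nfkb2, a subunit of the alternative pathway, rose by 0.52 (0.40), and Tnip3, an inhibitor of the pathway, by 0.88 (0.57). Icam1 and Nfkbiz passed only with 12 libraries (0.56 and 1.00, adjusted p 0.0534 and 0.139 without SETBP1 replicate 3).

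A list of transcriptional output of the MAPK pathway, which the series title places at its centre, had no called member. Over all genes 8.31% were higher and 6.55% lower, so 0 called of 14 is near that background. The immediate-early genes above were counted as a list of their own. Of 14 tested genes, edgeR called 0 in either direction, 2 higher and 0 lower at an unadjusted p under 0.05, DESeq2 called 1 higher and limma-voom 0. The list's median was -0.12, and 0.00 without SETBP1 replicate 3, where Ccnd1, the D-type cyclin, passed (0.55, adjusted p 0.0179). Of 12 JAK-STAT feedback genes, 0 were higher and 1 lower, and 2 were lower without that library. Stat3, the transcription factor downstream of IL-6 and G-CSF, fell from 187, 181 and 183 to 151, 137 and 113 normalised CPM (log2 change -0.46, SE 0.09, adjusted p 0.00807, -0.35 without SETBP1 replicate 3). For every list given with 0 members in a direction, at most 2 members passed there at an unadjusted p under 0.05, at most 1 by DESeq2 and at most 2 by limma-voom.

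**Figure D3:**
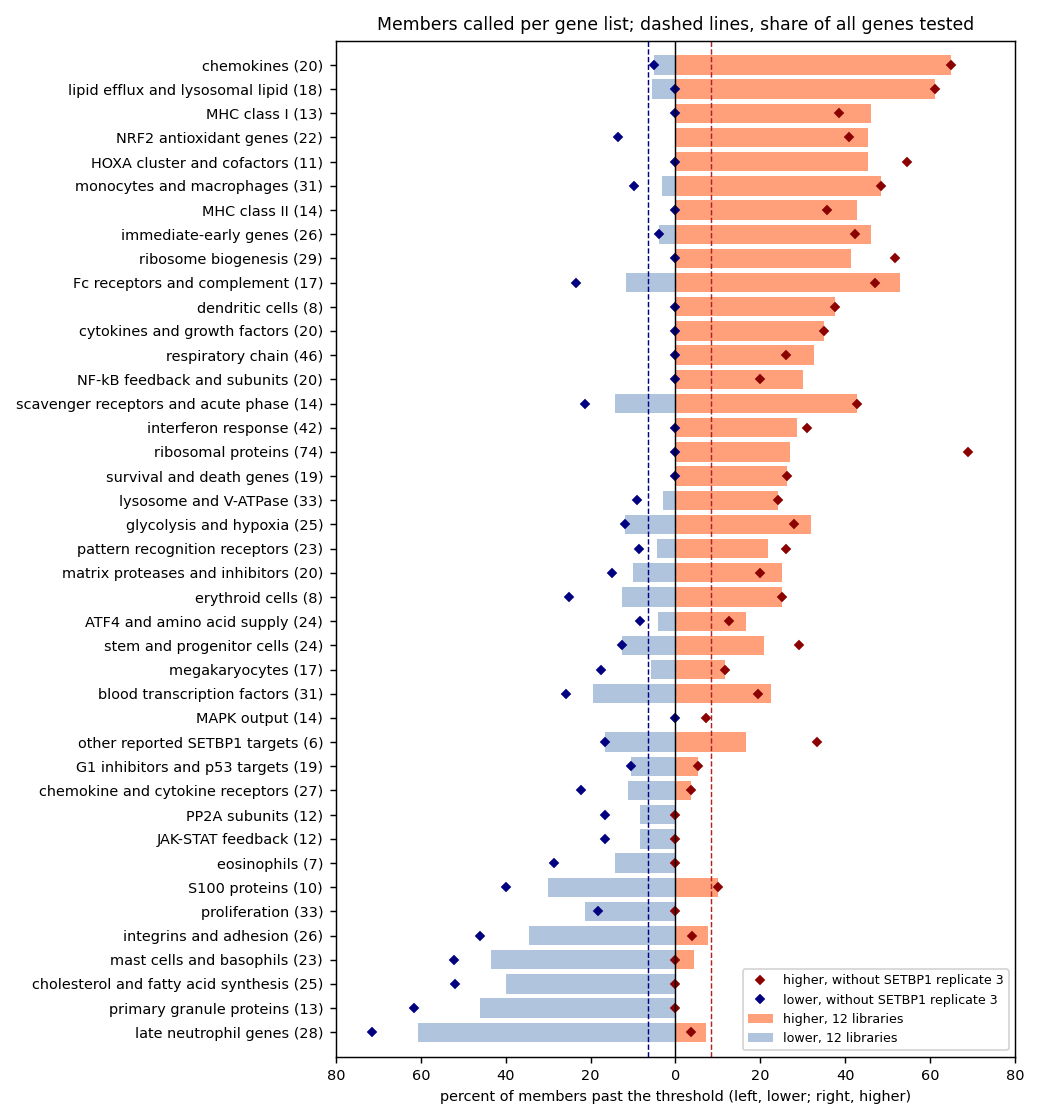
Percent of tested members of each gene list (number in parentheses) past an adjusted p of 0.05, higher to the right and lower to the left; bars use 12 libraries, diamonds leave out SETBP1 replicate 3, and dashed lines mark all genes tested (8.31% and 6.55%). Among the bars, chemokines reach furthest right, with 13 of 20 members, and late neutrophil genes furthest left, with 17 of 28.

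Many monocyte and macrophage genes were higher. Of 31 tested, 15 were higher and 1 lower (15 and 3 without SETBP1 replicate 3), with a median of 0.71 (0.41). Their summed level was 17224 to 19671 normalised CPM in the empty libraries and 22776, 25084 and 42609 in SETBP1 replicates 1, 2 and 3. In bulk RNA, more cells of a type and more RNA per cell cannot be told apart, here and for each lineage below. Lyz2, lysozyme of monocytes and neutrophils and the most abundant gene of the SETBP1 libraries, was at 11548, 11855 and 9969 normalised CPM with empty vectors and 14143, 16376 and 30094 with SETBP1 (log2 change 0.86, SE 0.21, adjusted p 0.0198, 0.46 without SETBP1 replicate 3); it was named after its values were seen, and its copy Lyz1 can share reads. Cd14, a co-receptor for endotoxin, was at 38.2, 34.3 and 25.9 and 63.7, 80.0 and 147 (log2 change 1.56, SE 0.26, adjusted p 0.00306, 1.12 without SETBP1 replicate 3). Gpnmb, a glycoprotein of lipid-laden macrophages, was at 266, 392 and 437 and 924, 796 and 1689 (log2 change 1.64, SE 0.26, adjusted p 0.00285, 1.24 without SETBP1 replicate 3). In each of these genes SETBP1 replicate 3 was the highest library and the groups did not overlap. The 1 lower was Itgam, which encodes CD11b, at 419, 393 and 469.6 against 326, 255 and 208 (log2 change -0.70, SE 0.13, adjusted p 0.00662, -0.55 without SETBP1 replicate 3).

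Genes of complement and of innate recognition moved in both directions. Of 17 tested Fc receptor and complement genes, 9 were higher and 2, C3 and Itgam, were lower (8 and 4 without SETBP1 replicate 3). C1qa, C1qb and C1qc, the subunits of the first complement component and typical products of resident macrophages, rose by 1.74, 1.52 and 1.57 (1.41, 1.10 and 1.07). C1qb was at 155, 210.2 and 158 normalised CPM with empty vectors and 358, 392 and 751 with SETBP1. C3ar1, the receptor of the complement fragment C3a, rose by 0.60 (0.49). Of 23 pattern recognition receptors, 5 were higher and 1 lower (6 and 2). The C-type lectins Clec4d, Clec4e and Clec4n, which sense fungal and mycobacterial lipids and sugars, rose by 1.78, 1.28 and 1.73 (1.38, 0.88 and 1.24), while Clec4a2, an inhibitory member, fell by 0.52 (-0.63 without SETBP1 replicate 3). Of 14 scavenger receptor and acute phase genes, 6 were higher and 2, Olr1 and Lcn2, were lower (6 and 3). Stab1, a scavenger receptor for modified lipoprotein, rose by 0.90 (0.82).

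Most genes tested that store, move and break down lipid were higher. Of 18 lipid efflux and lysosomal lipid genes, 11 were higher and 1, Soat1, which esterifies cholesterol, was lower with 12 libraries, and 11 and 0 without SETBP1 replicate 3, with a median of 0.71 (0.47). Soat1 itself was at 0.07 with the length trend removed (adjusted p 0.736). Apoe, which carries cholesterol out of macrophages, was at 229, 260.3 and 209.8 normalised CPM with empty vectors and 463, 548 and 1055 with SETBP1 (log2 change 1.56, SE 0.29, adjusted p 0.00579, 1.12 without SETBP1 replicate 3). Fabp5, a fatty acid carrier, was at 109, 140.3 and 113 and 241, 233 and 304 (log2 change 1.10, SE 0.12, adjusted p 0.000344, 0.97 without SETBP1 replicate 3), and Cd36, a receptor for oxidised lipid, at 7.19, 15.6 and 7.96 and 30.9, 17.5 and 39.3 (log2 change 1.52, SE 0.29, adjusted p 0.00678, 1.26 without SETBP1 replicate 3). Apoe was about 2-fold higher in replicate 3 than in the other SETBP1 libraries, whereas Fabp5 was more even. Of 25 cholesterol and fatty acid synthesis genes, 0 were higher and 10 lower (0 and 13), with a median of -0.39 (-0.32). Hmgcs1, which makes the precursor of mevalonate, was at 99.3, 91.1 and 101 and 75.4, 75.7 and 71.6 (log2 change -0.39, SE 0.09, adjusted p 0.0150, -0.36 without SETBP1 replicate 3). Cyp51, a later enzyme of the pathway, fell by 0.60 and Acly, which supplies acetyl-CoA, by 0.45 (-0.70 and -0.32 without SETBP1 replicate 3).

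Cathepsins and some antioxidant genes were higher, while most members of their lists were not called. Of 33 lysosome and V-ATPase genes, 8 were higher and 1, the proton pump subunit Atp6v1a, was lower (8 and 3 without SETBP1 replicate 3). Ctsb, cathepsin B, was at 1195, 1338 and 1113 normalised CPM with empty vectors and 1868, 1843 and 3403 with SETBP1 (log2 change 0.96, SE 0.18, adjusted p 0.00645, 0.61 without SETBP1 replicate 3). Ctsd, Ctsz and Ctss, further cathepsins, rose by 0.86, 0.67 and 1.25 (0.52, 0.39 and 0.85), and Lgmn, legumain, by 1.17 (0.97). Of 22 antioxidant genes, most of them targets of the factor NRF2, 10 were higher and 0 lower (9 and 3). Fth1, the heavy chain of the iron store ferritin, was at 2787, 3388 and 2768 and 6719, 6765 and 11978 (log2 change 1.51, SE 0.18, adjusted p 0.000714, 1.18 without SETBP1 replicate 3). Hmox1, which degrades heme, was at 109.5, 147 and 107 and 292, 249 and 493 (log2 change 1.51, SE 0.20, adjusted p 0.00128, 1.16 without SETBP1 replicate 3). Slc7a11, the cystine importer, was at 11.2, 10.7 and 10.9 and 23.1, 24.8 and 22.2 (log2 change 1.10, SE 0.11, adjusted p 0.000344, 1.13 without SETBP1 replicate 3). Slc7a11 differed little among the SETBP1 libraries, while Fth1 and Hmox1 were highest in replicate 3. Sod2 and Prdx1, which clear superoxide and peroxide, rose by 0.85 and 0.93 (0.72 and 0.65).

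Some genes of the interferon response were higher. Of 42 tested genes, 12 were higher and 0 lower (13 and 0 without SETBP1 replicate 3), with a median of 0.43 (0.25). Many promoters of this list hold the interferon-stimulated response element, the binding site of the factors that interferon activates. It was searched as 2 copies of TTTC with any 2 bases between them, on both strands in the 250 bases before each start, and windows of Isg15 and Ifi205 are shown because these called genes carry the element in several overlapping copies and in a single copy:
Isg15 (chr4:156200830-156200929, minus strand): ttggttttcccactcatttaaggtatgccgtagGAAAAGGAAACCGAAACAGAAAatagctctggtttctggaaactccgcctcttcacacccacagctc
Ifi205 (chr1:174031835-174031934, minus strand): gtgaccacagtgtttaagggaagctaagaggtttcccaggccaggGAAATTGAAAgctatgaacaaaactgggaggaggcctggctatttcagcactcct

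The letters were found in 19 of 33 tested members with a RefSeq entry and in 8 of the 12 called higher, against 3.46% of tested genes. Isg15, a ubiquitin-like protein, was at 41.6, 47.7 and 45.7 normalised CPM with empty vectors and 69.1, 83.5 and 112 with SETBP1 (log2 change 0.97, SE 0.21, adjusted p 0.0102, 0.76 without SETBP1 replicate 3). Ifi205, a DNA sensor of a family of close copies, was at 3.43, 4.57 and 2.43 and 9.87, 9.02 and 13.4 (log2 change 1.62, SE 0.29, adjusted p 0.00505, 1.43 without SETBP1 replicate 3). Irf7, the factor that amplifies interferon production, was at 141, 165 and 141 and 224, 258 and 439 (log2 change 1.04, SE 0.22, adjusted p 0.00985, 0.69 without SETBP1 replicate 3). For these 3 genes the groups did not overlap and replicate 3 was the highest. Bst2, which tethers budding virus to the cell, rose by 0.83 (0.69) and Phf11d by 1.01 (0.91). Gbp5, a GTPase of the interferon-gamma response, passed only without SETBP1 replicate 3 (0.80, adjusted p 0.0168).

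Some antigen presentation genes of both classes were higher. Of 14 MHC class II genes, 6 were higher and 0 lower (5 and 0), and of 13 MHC class I genes 6 and 0 (5 and 0). H2-Ab1 was at 96.1, 126 and 131 normalised CPM with empty vectors and 201, 206 and 333 with SETBP1 (log2 change 1.07, SE 0.17, adjusted p 0.00279, 0.79 without SETBP1 replicate 3). H2-Aa, H2-Eb1 and Cd74, the partner chain, related beta chain and chaperone, rose by 0.92, 1.06 and 1.00 (0.79, 0.86 and 0.69). In class I, Psmb10, a catalytic subunit of the immunoproteasome, was at 108, 121 and 111 and 158, 191 and 241 (log2 change 0.80, SE 0.13, adjusted p 0.00290, 0.62 without SETBP1 replicate 3). B2m and H2-K1, the light and a heavy chain, rose by 0.45 and 0.30 (0.27 and 0.21). With the length trend removed the class I count was 3 of 13, and B2m and H2-K1 missed the threshold (adjusted p 0.423 and 0.168).

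**Figure D4:**
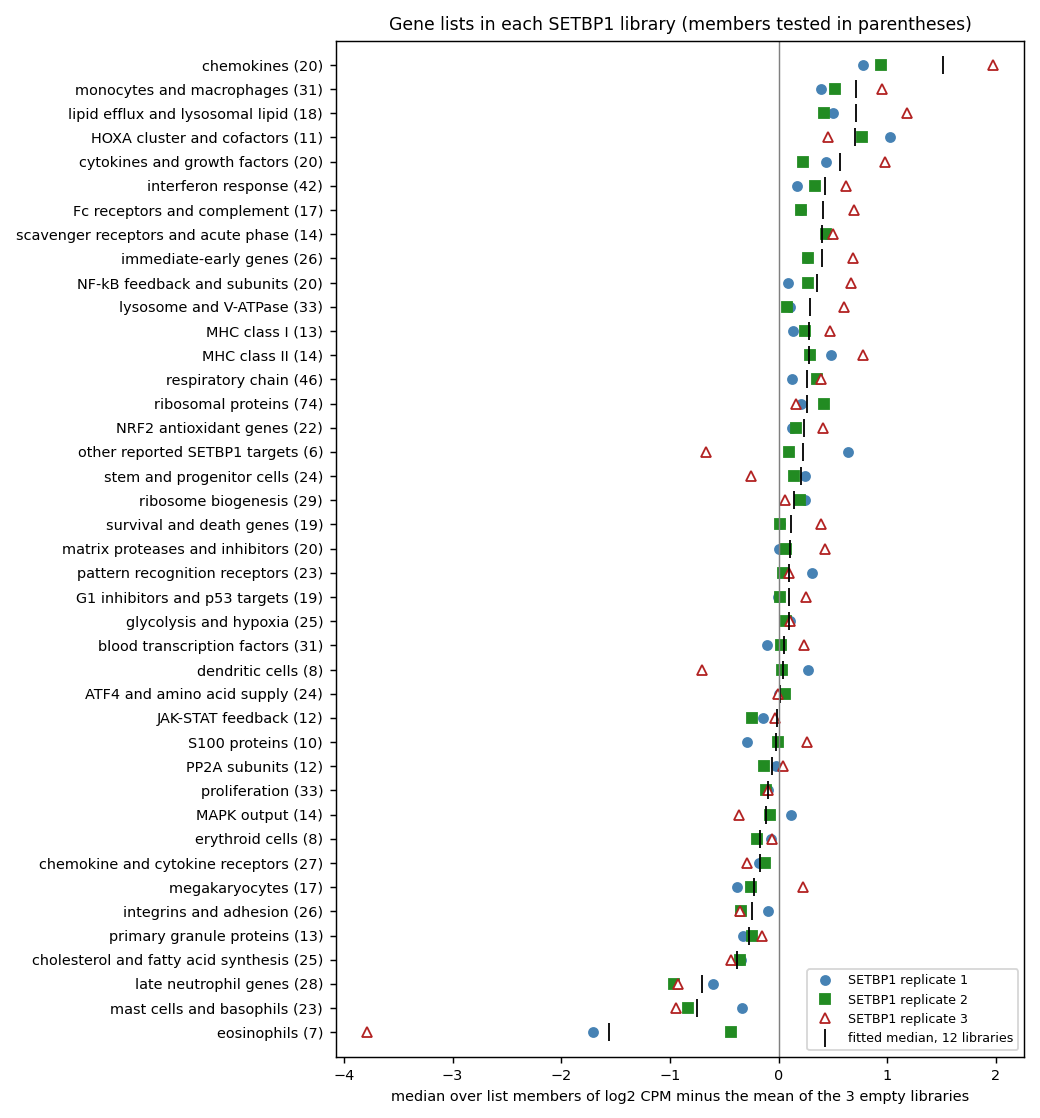
Median over the members of each gene list of the log2 CPM in a SETBP1 library minus the mean of the 3 empty libraries, 1 symbol per SETBP1 library, with the fitted median as a bar. SETBP1 replicate 3 lies furthest from 0 for chemokines, macrophage and lipid genes, and nearer to 0 than the others for the HOXA list.

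Most late neutrophil genes tested were lower. Of 28 genes of late neutrophil stages, 2, Adam8 and Arg2, were higher and 17 lower (1 and 20 without SETBP1 replicate 3), with a median of -0.71 (-0.83). Their summed level was 18402 to 20227 normalised CPM in the empty libraries and 12937, 9063 and 10727 in SETBP1 replicates 1, 2 and 3. Ltf, lactoferrin of the secondary granules, was at 1175, 1038 and 1101 with empty vectors and 646, 411 and 454 with SETBP1 (log2 change -1.13, SE 0.16, adjusted p 0.00167, -1.06 without SETBP1 replicate 3). S100a8 and S100a9, which form calprotectin, fell by 1.17 and 1.02 (-1.02 and -0.92 without SETBP1 replicate 3). S100a9 was at 2472, 2426 and 2744 and 1458, 1227 and 1077, with no overlap between groups. Cd177, a neutrophil surface protein, was at 212, 187 and 216 and 117, 67 and 65.2 (log2 change -1.30, SE 0.18, adjusted p 0.00134, -1.15 without SETBP1 replicate 3). Retnlg, a resistin-like protein of mature neutrophils, fell by 2.40 (-1.98 without SETBP1 replicate 3) and Mmp9, a gelatinase of the tertiary granules, by 1.31 (-0.98). Arg2, an arginase, missed the threshold with the length trend removed (adjusted p 0.112).

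Some late genes were lower only in part of the SETBP1 libraries. Mmp8, the neutrophil collagenase, was at 284, 303 and 455 normalised CPM with empty vectors and 183, 198 and 447 with SETBP1. Replicate 3 reached the empty range, and Mmp8 passed only without it (-0.86, adjusted p 0.00129). Olfm4, a secondary granule protein of a neutrophil subset, was at 13.4, 7.11 and 8.23 and 4.82, 1.31 and 13.6 and likewise passed only without it (-1.63, adjusted p 0.0368).

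Some primary granule proteins, made earlier at the promyelocyte stage, were lower. Of 13, 0 were higher and 6 lower (0 and 8 without SETBP1 replicate 3), and the median was -0.28 (-0.29). With the length trend removed 10 were lower. Mpo, myeloperoxidase and the most abundant gene of the empty libraries, was at 15357, 14546 and 16137 normalised CPM with empty vectors and 11255, 10651 and 8697 with SETBP1 (log2 change -0.59, SE 0.10, adjusted p 0.00285, -0.49 without SETBP1 replicate 3). Elane, neutrophil elastase, was at 6184, 6077 and 7046 and 4761, 5419 and 5775. It missed the threshold with 12 libraries and passed without replicate 3 (-0.34, adjusted p 0.0176). With the length trend removed it passed with 12 libraries too (-0.57, adjusted p 0.00132). Prss57, a serine protease, fell by 0.79 (-0.82) and Hgf, hepatocyte growth factor, by 1.11 (-1.09). Ltb4r1, the receptor through which leukotriene B4 attracts neutrophils, was at 159, 162 and 155 and 96.5, 89.9 and 109 (log2 change -0.69, SE 0.08, adjusted p 0.000714, -0.77 without SETBP1 replicate 3).

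Many mast cell and basophil genes were lower. Of 23 tested, 1, the prostaglandin D synthase Hpgds, was higher and 10 lower (0 and 12 without SETBP1 replicate 3), with a median of -0.75 (-0.55). Their summed level was 3945 to 3961 normalised CPM in the empty libraries and 3005, 2112 and 2631 in SETBP1 replicates 1, 2 and 3. Tph1, which starts serotonin synthesis in mast cells, had 156 counts over the empty libraries and 1 over the SETBP1 libraries. The 1 count was in SETBP1 replicate 2. The ratio was 157, with an exact 95% interval of 27.7 to 6222 that covers counting error only. Fcer1a, the alpha chain of the IgE receptor, was at 108, 119 and 123 and 49, 42.2 and 66.1 (log2 change -1.15, SE 0.19, adjusted p 0.00303, -1.35 without SETBP1 replicate 3). Ms4a2, its beta chain, was at 98.3, 97.5 and 109 and 53, 32.5 and 32.1 (log2 change -1.37, SE 0.24, adjusted p 0.00451, -1.24 without SETBP1 replicate 3). Replicate 3 was not the lowest SETBP1 library for Fcer1a and was level with replicate 2 for Ms4a2. Gzmb, granzyme B, which mast cells and cytotoxic lymphocytes make, was at 37.6, 33.9 and 34.4 and 3.01, 10.5 and 0.947 (log2 change -2.91, SE 0.46, adjusted p 0.00272, -2.41 without SETBP1 replicate 3). Cma1, a mast cell chymase, fell by 3.40 (-2.81), Gata2, a factor of mast cells and stem cells, by 0.75 (-0.63) and Alox5, which makes leukotrienes, by 0.78 (-0.77).

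Eosinophil markers varied widely among the libraries. Of 7 tested, 0 were higher and 1 lower (0 and 2 without SETBP1 replicate 3). Epx, eosinophil peroxidase, was at 132, 51.2 and 126 normalised CPM with empty vectors and 11.8, 94 and 0 with SETBP1 and did not pass (adjusted p 0.261). Its level in SETBP1 replicate 2 lay inside the empty range, and replicate 3 had 0 counts. Siglecf, a lectin of eosinophils, fell by 0.77 (-0.69). Many lymphoid and erythroid markers were not detected: 3 of 14 B cell, 6 of 18 T and NK cell and 5 of 18 erythroid markers had no count in any of the 6 libraries, among them Cd3e, Pax5 and Hbb-bs. Summed over all members, the B cell list was at 21.0 to 24.0 normalised CPM in the empty libraries and 24.7, 28.5 and 36.2 in the SETBP1 libraries, and the T and NK cell list at 36.0 to 42.5 and 34.6, 23.9 and 34.9. The erythroid list was higher, at 429 to 465 in the empty libraries and 435, 389 and 349.5 in the SETBP1 libraries. Of its 8 tested members 2 were higher, Car2 and Blvrb, and 1, the transferrin receptor Tfrc, was lower (2 and 2 without SETBP1 replicate 3), and these genes are not specific to red cells. With 12 libraries, 8.31% of all genes tested were higher and 6.55% lower. The part of any shift in cell types in the results above was not tested.

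More adhesion genes were called lower than higher. Of 26 integrins and adhesion molecules, 2 were higher and 9 lower (1 and 12 without SETBP1 replicate 3). Fn1, fibronectin, was at 161, 172 and 126 normalised CPM with empty vectors and 88.4, 92.8 and 71.7 with SETBP1 (log2 change -0.86, SE 0.17, adjusted p 0.00760, -0.76 without SETBP1 replicate 3). Vcan, versican, another matrix protein, was at 47.6, 41.1 and 42.5 and 18.7, 15.7 and 7.34 (log2 change -1.66, SE 0.29, adjusted p 0.00451, -1.35 without SETBP1 replicate 3). For both the SETBP1 libraries were all below the empty ones. Of 20 matrix proteases and inhibitors, 5 were higher and 2 lower (4 and 3 without SETBP1 replicate 3). Slpi, an inhibitor of elastase, rose by 1.05 (0.78) and Mmp12, the macrophage elastase, by 1.58 (0.80).

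Transcription factors and progenitor genes moved in both directions. Of 31 blood transcription factors, 7 were higher and 6 lower (6 and 8 without SETBP1 replicate 3), and of 24 stem and progenitor genes 5 and 3 (7 and 3). Lmo2, a bridging factor of stem cells, was at 155, 169 and 173 normalised CPM with empty vectors and 237, 245 and 301 with SETBP1 (log2 change 0.66, SE 0.09, adjusted p 0.00127, 0.54 without SETBP1 replicate 3). Sox4, which can cooperate in myeloid leukemia, was at 30.2, 32.9 and 29.6 and 54.8, 56.7 and 45 (log2 change 0.76, SE 0.12, adjusted p 0.00303, 0.85 without SETBP1 replicate 3). Irf8, which directs progenitors to monocytes and dendritic cells, rose by 0.81 (0.59), and Gfi1, which directs them to neutrophils, fell by 0.44 (-0.45). Bhlhe41 rose by 2.76 from a low level, 0.553, 1.14 and 0.270 against 2.77, 3.27 and 7.57 (2.17 without SETBP1 replicate 3), and its relative Bhlhe40 fell by 0.53 (-0.42). Cebpb, a macrophage and emergency granulocyte factor, passed only with 12 libraries (0.69, adjusted p 0.0765 without SETBP1 replicate 3). With the length trend removed it did not pass (adjusted p 0.0764).

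Most proliferation genes were not called. Of 33, 0 were higher and 7 lower (0 and 6 without SETBP1 replicate 3), with a median of -0.10 (-0.14). Ccna2, cyclin A2, was at 357, 353 and 361 normalised CPM with empty vectors and 314, 275 and 300.2 with SETBP1 (log2 change -0.27, SE 0.07, adjusted p 0.0190, -0.28 without SETBP1 replicate 3). Top2a, a topoisomerase of dividing cells, was at 382, 355 and 372 and 320.2, 267 and 178 (log2 change -0.53, SE 0.15, adjusted p 0.0303, -0.33 without SETBP1 replicate 3), lowest in replicate 3. Of 19 survival and death genes, 5 were higher and 0 lower in both fits. These included Bcl2a1a, Bcl2a1b and Bcl2a1d, near-identical anti-apoptotic copies whose reads cannot be safely told apart, at 0.92, 0.92 and 0.88 (0.61, 0.65 and 0.60 without SETBP1 replicate 3). With the length trend removed 3 of the 19 were higher and 1 lower, and without SETBP1 replicate 3 as well 1 was higher. Bcl2a1a and Bcl2a1d missed the threshold in that last fit (adjusted p 0.0689 and 0.0863).

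The calls among genes of translation and respiration depended on transcript length, and most members were not called with 12 libraries. Of 74 ribosomal protein genes, 20 were higher and 0 lower with 12 libraries and 51 and 0 without SETBP1 replicate 3, with a median of 0.26 (0.31). With library size scaling 10 were higher. With the length trend removed 2 were higher, or 14 without SETBP1 replicate 3 as well, and the medians were 0.02 and 0.12. The median length of these transcripts was 1076.5 bases, and among the 2751 genes with the shortest transcripts 18.1% were called higher. Rpl12 was at 188, 213 and 219 normalised CPM with empty vectors and 259, 296 and 269 with SETBP1 (log2 change 0.41, SE 0.09, adjusted p 0.0119, 0.43 without SETBP1 replicate 3). Respiratory chain subunits showed the same dependence, with 15 of 46 higher (12 without SETBP1 replicate 3) and 4 with the length trend removed (3 without SETBP1 replicate 3 as well). Ribosome biogenesis genes, whose transcripts are longer, with a median of 3389 bases, had 12 of 29 higher (15 without SETBP1 replicate 3) and 9 with the length trend removed. Gnl3, a nucleolar GTPase, was at 146, 142 and 149.8 and 194, 185 and 219 (log2 change 0.45, SE 0.08, adjusted p 0.00375, 0.38 without SETBP1 replicate 3). The serine and glycine enzymes Phgdh and Shmt2 rose by 0.39 and 0.33 (0.41 and 0.34), with similar values in the 3 SETBP1 libraries.

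The glycolytic enzymes Ldha and Gapdh rose by 0.38 and 0.38 (0.29 and 0.29). Ldha, which makes lactate, was at 2599, 2707 and 2533 normalised CPM with empty vectors and 3114, 3297 and 3793 with SETBP1. Of 25 glycolysis and hypoxia genes, 8 were higher and 3 lower (7 and 3 without SETBP1 replicate 3). Pfkfb4, which sets the flow into glycolysis, was among the lower, at 32.5, 29.5 and 28.6 and 13.4, 14.1 and 18.6 (log2 change -0.98, SE 0.17, adjusted p 0.00491, -1.14 without SETBP1 replicate 3). The count of higher genes was 4 with the length trend removed and SETBP1 replicate 3 left out.

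Several genes outside the lists had closely agreeing libraries. Ckap4, a membrane protein of the endoplasmic reticulum, was at 343, 329 and 322 normalised CPM with empty vectors and 207, 211 and 187 with SETBP1 (log2 change -0.72, SE 0.06, adjusted p 0.000202, -0.66 without SETBP1 replicate 3). Tuba8, an alpha tubulin, was at 144, 140.1 and 157 and 87.2, 76.2 and 90.0 (log2 change -0.80, SE 0.08, adjusted p 0.000344, -0.85 without SETBP1 replicate 3), and Osbpl2, a sterol transfer protein, at 79.8, 81.9 and 84.6 and 46.8, 50.6 and 50.3 (log2 change -0.74, SE 0.09, adjusted p 0.000828, -0.75 without SETBP1 replicate 3). Larger falls were seen in Lipg, an endothelial lipase (-1.69, -1.62 without SETBP1 replicate 3), and Scin, which severs actin (-1.81, -1.70).

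Calls that rested on SETBP1 replicate 3 had a different pattern. Among genes called with 12 libraries only, Rab3il1 was at 27.7, 32.3 and 20.6 normalised CPM with empty vectors and 37.9, 39.6 and 95.2 with SETBP1 (adjusted p 0.0403, and 0.0920 without that library). Batf2, an interferon-inducible factor, was at 2.66, 3.05 and 2.29 and 4.46, 5.10 and 11.6 (0.0237 and 0.0688). In both genes replicate 3 was more than 2-fold above the other SETBP1 libraries. Among genes called only without it, Cyp26a1, which degrades retinoic acid, was at 8.19, 9.27 and 12.1 and 2.53, 3.53 and 8.99 (0.136 and 0.00339), and Xrcc5, of DNA end joining, at 7.85, 9.27 and 11.1 and 5.18, 2.48 and 8.40 (0.0984 and 0.00423). For both, replicate 3 lay within the empty range.

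The same comparison was read in the libraries that carried NRAS (G12D), which share no library with the comparison above. There, adding SETBP1 changed 210 genes (1.91%), 58 higher (0.528%) and 152 lower (1.38%). Of the 707 genes higher in both fits of SETBP1 against empty, 38 were also called higher there, and of the 617 lower, 77 were called lower. Hoxa9 was at 14.9, 19.6 and 21.3 normalised CPM with NRAS and 43.2, 46.5 and 47.9 with both (log2 change 1.30, SE 0.13, adjusted p 0.000147). Mpo was at 6271, 6257 and 5837 and 3028, 3286 and 2799 (log2 change -1.01, SE 0.10, adjusted p 8.63e-05), and Ltf at 292, 208 and 311 and 62.1, 55.4 and 53.5 (log2 change -2.25, SE 0.17, adjusted p 3.19e-05). These 3 genes changed in the same direction as without NRAS, and the difference between the changes did not pass with 12 libraries (adjusted p 0.803, 0.268 and 0.165). Without SETBP1 replicate 3 it passed for Ltf and Mpo, which fell further with NRAS (adjusted p 0.00703 and 0.00839).

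A test of the difference itself called 5 genes with 12 libraries (0.0455%) and 109 without SETBP1 replicate 3 (0.992%). The 5 were Slc7a11 and 4 named after their values were seen: Camp, an antimicrobial peptide of neutrophil granules, Apobec3, a restriction factor of retroviruses, Tmem176b and Oaf. Camp fell in both settings, by 0.58 without NRAS and by 2.13 with it (difference -1.55, SE 0.24, adjusted p 0.0424). Apobec3 was at 169, 159 and 168 normalised CPM with empty vectors and 225, 221 and 239 with SETBP1 (log2 change 0.47, SE 0.07, adjusted p 0.00240), and at 172, 167 and 189 with NRAS and 143, 141 and 153 with both (difference -0.74, SE 0.10, adjusted p 0.0178). Tmem176b rose without NRAS and fell with it (0.69 and -0.78, difference -1.48, SE 0.19, adjusted p 0.0114). Oaf was called with NRAS and not without it (0.68 and -0.38, difference 1.06, SE 0.16, adjusted p 0.0374). Without NRAS it passed once the length trend was removed (-0.45, adjusted p 0.0303). The difference of all 5 also passed without SETBP1 replicate 3. Slc7a11 was at 131, 121 and 152 normalised CPM with NRAS and 103, 109.7 and 106 with both (log2 change -0.34, SE 0.09, adjusted p 0.0873). Its change with NRAS minus its change without was -1.44, SE 0.15, adjusted p 0.00169, and -1.47 without SETBP1 replicate 3, adjusted p 0.000110. Il1b was at 15.7, 14.3 and 20.4 with NRAS and 14, 9.60 and 14.9 with both, and its difference passed only without SETBP1 replicate 3 (-2.44, SE 0.45, adjusted p 0.119, and -1.90 without SETBP1 replicate 3, adjusted p 0.00270). The same held for Ccl2, which stood at 1615, 1506 and 1323 with NRAS and 2309, 2086 and 2325 with both (-1.63, SE 0.38, adjusted p 0.178, and -1.08 without SETBP1 replicate 3, adjusted p 0.000966), and for Junb (-0.78, SE 0.15, adjusted p 0.132, and -0.61 without SETBP1 replicate 3, adjusted p 0.00275). With NRAS alone, Slc7a11 and Ccl2 stood above every SETBP1 library, while Il1b and Junb lay within the range of the SETBP1 libraries.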

How the data were processed

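RNA was sequenced in 12 libraries, and per the submitters' processing notes the tools included STAR and DESeq2 and the build mm10. The authors deposited whole-number counts per gene symbol, with no normalisation. The counter, annotation, strand setting and filter are not given in the sources used here, so close paralogs and overlapping or antisense genes may have shared reads. Of 19910 symbols listed, 5080 had no count in any library.

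From these counts, edgeR 4.0.16 in R 4.3.3 fitted a quasi-likelihood model with 4 group means to all 12 libraries, after TMM scaling and filterByExpr (minimum count 10, minimum total 15), which kept 10993 genes and 99.9% of counts. Each two-sided p was adjusted over all 10993 genes by the Benjamini-Hochberg method, and 0.05 was the threshold. Standard errors were the log2 change divided by the square root of F. Normalised CPM used the TMM factors. Symbols were matched to GENCODE M21 for coordinates (GRCm38) and for the length of the longest transcript (100% of genes tested), and to RefSeq GRCm38.p6 promoters. In simulated counts 200 genes were changed, all with a mean count of at least 50. The test recovered 93% of the 2-fold and 100% of the 4-fold changes, and 9.39% of its calls were false. The simulation held no outlying library and no length trend, so these rates need not apply to the calls above.

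Genes were named by a rule: Setbp1 and Nras, the 10 largest changes in each direction (called in both fits, groups not overlapping, mean count of at least 50 in the higher group), the 5 smallest adjusted p in each direction, up to 5 members per list called in both fits and 2 called in 1 fit, the 5 largest changes called in only 1 fit, and HOXA genes and defining cell type markers. Lyz2, Ccl24, Btg2, Atp6v1a, Adam8, C3, Olr1, Camp, Apobec3, Tmem176b and Oaf fell outside it and were named after their values were seen. The 43 gene lists, written from general knowledge, and the members were chosen with earlier results of these data known. Lists are described by counts and medians, with no test of a list. Some genes that the rule names are not reported here.

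Alternatives were DESeq2 1.42.0, limma 3.58.1 voom without and with sample quality weights, other scalings and filters, fits of the 2 groups only, a replicate block, and leaving out each empty or SETBP1 library. Removing the length trend (a lowess curve per library, used as an offset) and the scalings for the list counts were added after the data were seen.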

Additional observations from a re-analysis of the deposited data

Results flagged for a closer look

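The change of Slc7a11, the cystine importer, differed between the settings without and with NRAS by a test of the difference itself, -1.44 on the log2 scale (SE 0.15, edgeR adjusted p 0.00169, 3 libraries a group). Without NRAS the 3 SETBP1 libraries were all above the 3 empty libraries, at 23.1, 24.8 and 22.2 against 11.2, 10.7 and 10.9 normalised CPM. With NRAS the 3 libraries with both mutants were all below the 3 with NRAS alone, at 103, 109.7 and 106 against 131, 121 and 152, a change of -0.34 that did not pass (adjusted p 0.0873). Without SETBP1 replicate 3 the difference was -1.47 (adjusted p 0.000110).

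The same test of the difference also passed for 4 other genes, each of them with 12 libraries and without SETBP1 replicate 3. The difference was -1.55 for Camp (adjusted p 0.0424), -0.74 for Apobec3 (adjusted p 0.0178), -1.48 for Tmem176b (adjusted p 0.0114) and 1.06 for Oaf (adjusted p 0.0374).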

How the results depend on the processing

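The number of changed genes was 1523 to 2191 (1633 in the fit reported) under DESeq2, limma-voom, limma-voom with quality weights, other scalings and other low-count filters, and 1386 with the length trend removed. It moved by over 1.5 times in the fit of the 2 groups only, to 107 (60 higher and 47 lower). Leaving out each empty or SETBP1 library in turn gave 398 to 3187 changed, 235 to 1673 higher and 163 to 1514 lower. No library with NRAS was left out. Higher calls were 55.9% of all calls, 49.5% without SETBP1 replicate 3 and 50.8% with library size scaling.

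Of the 152 genes named in the text and called with 12 libraries, 59 passed in each of the 19 alternatives that gave them a value. DESeq2 kept 151, limma-voom 148, the fit of the 2 groups only 61, the fits without empty replicate 1, 2 or 3 kept 104, 132 and 105, and the fit without SETBP1 replicate 3 kept 144. All kept their sign in every alternative except Soat1, at 0.0672 with the length trend removed (adjusted p 0.736). Nras, which was not called, was at -0.0145 with library size scaling and between -0.00703 and 0.0840 with 1 library left out. Deviations from the group means correlated at -0.10 to 0.00 between same-numbered empty and SETBP1 libraries. Between differently numbered ones the correlations were -0.14 to 0.14. With 3 libraries a group, the deviations within a group depend on each other, so these values cannot show or exclude a pairing by number. With a replicate block 1177 genes passed and 144 of the 152 were kept. Genes with few counts limit what can be seen: Setbp1 rests on 19 counts in all.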
